A study of Mus musculus with 6 samples.

Results

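The 10 genes described here (Tppp3, Ly6a, Cd34, Pi16, Dpp4, Clec3b, Nes, Thy1, Prrx1 and Cd248) mark the cells of the tendon sheath and the progenitor-type fibroblasts of connective tissue. They were chosen by symbol as epitenon, adventitial and progenitor fibroblast markers, all 10 were among the 53819 genes listed, and all 10 were among the 17496 genes that passed the filter on low counts. They were measured by bulk RNA-seq in healing flexor digitorum longus (FDL) tendons of the mouse hind paw at D28 after transection and repair, with 3 DTRScxLin and 3 wildtype (WT) tendons and 1 tendon from each mouse. DTRScxLin mice were Scx-Cre+; DTR F/+ and WT littermates were Scx-Cre-; DTR F/+, so both genotypes carried the diphtheria toxin receptor allele behind a floxed stop, and both received 5 daily injections of diphtheria toxin (DT) from D14 to D18. Mice of both sexes were 10 to 12 weeks old at surgery. The Scx-Cre used is not inducible, so that the receptor is carried by any cell whose ancestry once expressed Scx. Titles of the samples place D28 after depletion, whereas the methods place it after surgery, which is the time used here.

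The epitenon is the thin layer of cells that covers a tendon, and the sheath and paratenon are the loose tissue around it. Tppp3, a tubulin-binding protein, is widely used to mark sheath and paratenon cells, from which progenitors are thought to enter the tendon after injury. In loose connective tissue throughout the body, fibroblasts around vessels that carry the surface proteins PI16, DPP4, CD34 and SCA-1 (encoded by Ly6a) are regarded as a reserve from which more specialised fibroblasts arise. Several of these proteins are also found outside fibroblasts, since CD34 and SCA-1 are made by endothelial cells, THY1 by T cells and neurons, nestin by Schwann cells, endothelium and regenerating muscle, and CD248 by pericytes.

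Library totals ran from 42744138 to 48854310 counts. Scx, Tnmd and Mkx, which define tendon cells, were abundant in all 6 libraries, with at least 2203 normalized counts in any of them. Levels below are normalized counts, scaled with edgeR's TMM factors to the mean library size and given in the order of replicates 1, 2 and 3, unless another unit is named. The labels do not state the sex of a mouse. Xist and 4 Y-linked genes read WT replicate 2 and DTRScxLin replicates 2 and 3 as female, and the other libraries as male. Transcripts of other tissues differed between libraries: a list of 15 adult skeletal muscle genes held between 1.53% and 2.14% of counts in WT libraries and 0.264%, 1.89% and 0.508% in DTRScxLin replicates 1 to 3. A list of 8 adipocyte genes held between 0.105% and 0.194% in WT, and 0.0242%, 0.130% and 0.0338% in DTRScxLin replicates 1 to 3. Most of these counts came from Car3, with 68118 of 73506 normalized counts in WT replicate 1 and 7564 of 11767 in DTRScxLin replicate 1. Among WT libraries, Adipoq and Cfd were instead highest in replicate 3, where the share was lowest. Among DTRScxLin libraries, both were highest in replicate 2, as was the share. Car3 stood at 68118, 79891 and 38620 in WT and at 7564, 54090 and 10004 in DTRScxLin replicates 1 to 3. The muscle gene Ckm stood at 66875, 46340 and 38319 in WT and at 6035, 47449 and 9962 in DTRScxLin replicates. How far the adipocyte share repeats the muscle share was not tested. In bulk tissue, fewer cells of a type and less RNA from each cell cannot be told apart.

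At D28 the markers differed in direction. Cd248, Thy1 and Pi16 were higher in each DTRScxLin tendon than in any WT tendon. The same held for 8.96% of all genes tested, and 16.8% were without overlap in either direction. Tppp3 was at 0.742 of WT by the fitted fold, with overlapping groups. Dpp4, Cd34 and Prrx1 were fitted higher and Clec3b, Nes and Ly6a lower, all with overlap. With edgeR's quasi-likelihood test and Benjamini-Hochberg adjustment over 17496 genes, 0 of the 10 had an adjusted p under 0.05, against 0% of all genes in either direction. At an unadjusted p under 0.05, 2 of the 10 were higher (background 5.52%) and 1 was lower (background 5.45%). DESeq2, the tool used in the study, called 1 of the 10, Cd248, higher (background 1.12%) and 0 lower (background 1.53%, or 2.65% in either direction). The median log2 fold change of the 10 was 0.22, beside 0.008 over all genes tested, and it was 0.06 without DTRScxLin replicate 2 and 0.11 without WT replicate 1.

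**Figure D1:**
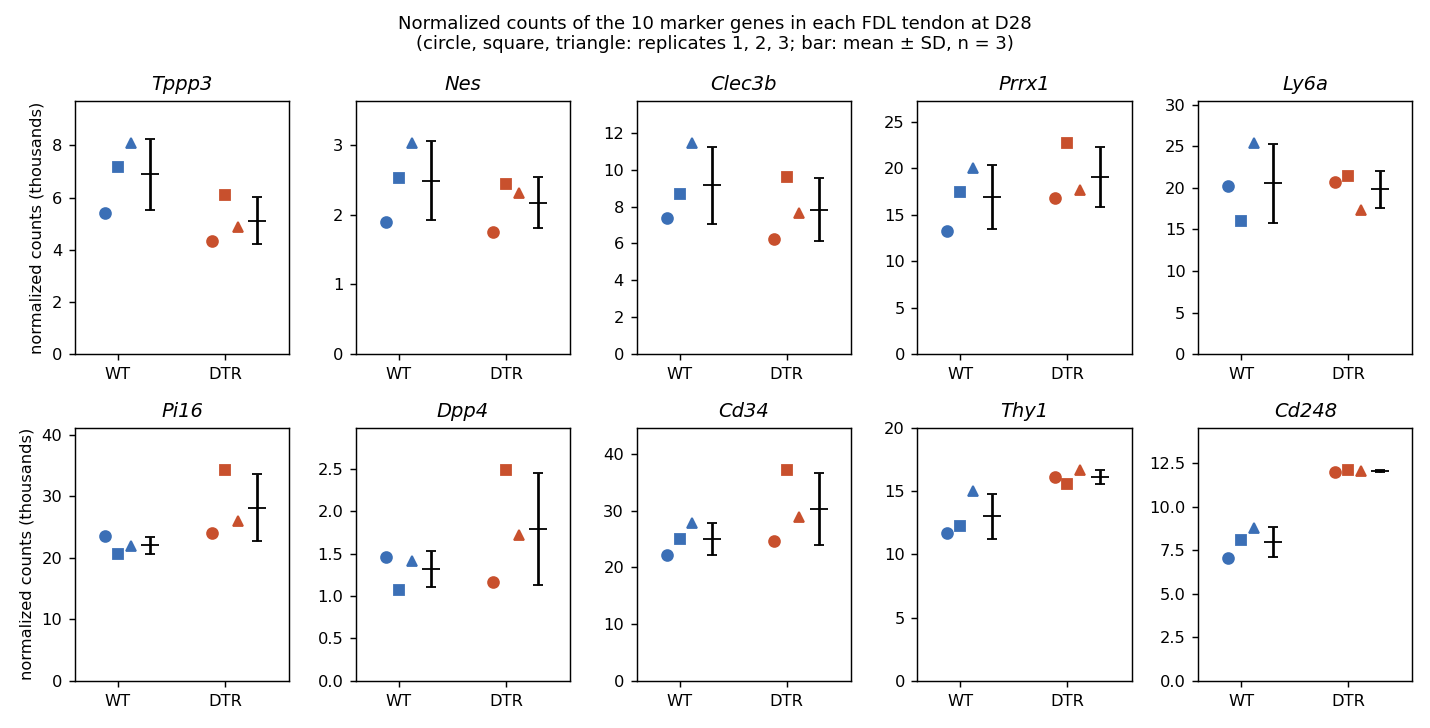
Normalized counts (vertical axis from 0, scaled as its label states) of each of the 10 genes in the 3 WT (blue) and 3 DTRScxLin (DTR, orange) tendons at D28, with the mean ± SD of each group in black. The groups are apart for Pi16, Thy1 and Cd248 and overlap for the other 7 genes, and the orange square, DTRScxLin replicate 2, is the highest orange point for all genes but Thy1.

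Tppp3 stood at 5411, 7157 and 8092 in the WT tendons and at 4354, 6116 and 4867 in the DTRScxLin tendons. WT replicate 1 lay below DTRScxLin replicate 2, so the groups overlapped, with DTRScxLin replicate 1 the lowest of all 6. The fold was 0.742 (95% interval 0.553 to 0.997), edgeR adjusted p = 0.453. Without DTRScxLin replicate 2 its log2 fold change went from -0.43 to -0.58 (edgeR adjusted p = 0.158). Within the female mice the DTRScxLin mean was 0.767 of the only WT value, and within the male mice the only DTRScxLin value was 0.645 of the WT mean. Tppp, the paralog of Tppp3 known mainly from myelinating glia, stood at 612, 766 and 677 in the WT tendons and at 298, 382 and 276 in the DTRScxLin tendons. Each DTRScxLin library was below each WT library for Tppp, and the log2 fold change was -1.10 (SE 0.17, edgeR adjusted p = 0.199). That adjusted p was the smallest in the table and was shared with other genes, Tppp being at rank 13 by unadjusted p. DESeq2 called Tppp lower (adjusted p = 2.8e-06). A Schwann cell list of 9 genes was also fitted lower for 7 of them, with a median log2 fold change of -0.35 and between 0.0655% and 0.119% of counts in WT against 0.0488% to 0.0839% in DTRScxLin libraries. That median was -0.73 without DTRScxLin replicate 3 and -0.22 without DTRScxLin replicate 1. The part of these glial transcripts in the Tppp value was not tested.

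Pi16, a secreted or membrane-anchored protein of the CAP family that labels adventitial fibroblasts across tissues, stood at 23520, 20701 and 21928 in the WT tendons and at 24121, 34320 and 26079 in the DTRScxLin tendons. All DTRScxLin libraries were above all WT libraries, although DTRScxLin replicate 1 exceeded WT replicate 1 by little. The fold was 1.28 (95% interval 0.998 to 1.64), edgeR adjusted p = 0.459. Dpp4, a cell-surface peptidase found on the same fibroblasts, stood at 1463, 1070 and 1416 in the WT tendons and at 1166, 2488 and 1721 in the DTRScxLin tendons. DTRScxLin replicate 1 was within the WT range and the other DTRScxLin libraries were above it, giving a fold of 1.36 with a wide 95% interval (0.833 to 2.23). Without DTRScxLin replicate 2 the log2 fold change was 0.19 for Pi16 in place of 0.35, and 0.13 for Dpp4 in place of 0.44, which was 0.67 without DTRScxLin replicate 1.

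Cd34, a sialomucin of progenitors and endothelium, stood at 22234, 25053 and 27829 in the WT tendons and at 24697, 37211 and 28844 in the DTRScxLin tendons. The groups overlapped through DTRScxLin replicate 1, and the fold was 1.21 (95% interval 0.914 to 1.6). Its log2 fold change of 0.27 was 0.10 without DTRScxLin replicate 2. Prrx1, a homeodomain transcription factor of limb mesenchyme, stood at 13195, 17408 and 20071 in the WT tendons and at 16791, 22712 and 17621 in the DTRScxLin tendons. Its groups were interleaved, and its log2 fold change of 0.17 was 0.03 without DTRScxLin replicate 2 and 0.02 without WT replicate 1, and 0.31 without WT replicate 3. The endothelial genes Pecam1 and Cdh5, for comparison with Cd34, had log2 fold changes of -0.15 and -0.04. Of the 12 endothelial genes 0 were without overlap (background 16.8% in either direction), with a median of -0.10. That list held 0.0808% to 0.103% of counts in WT and 0.0802% to 0.0952% in DTRScxLin libraries.

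Pi16, Dpp4, Cd34 and Prrx1 were each highest in DTRScxLin replicate 2 of all 6 libraries, a library that was highest for 17.1% of the genes tested. Cd248 was highest there as well, by little (12011, 12134 and 12070 in the DTRScxLin tendons), and no promoter was found for it. The stretches of 250 bases before the annotated starts of Pi16, Dpp4, Cd34 and Prrx1 (RefSeq, GRCm38.p6, 5′ to 3′) are shown because these 4 genes peaked in the same tendon. Promoters were found for 5 of the 10 genes, the fifth being Nes. Capitals mark an E-box (CANNTG, the motif of basic helix-loop-helix factors such as SCX) or TAATTA, a core site of homeodomain factors such as PRRX1. Both motifs read the same on either strand, and the letters of the motifs do not allow them to overlap.
Pi16 (chr17:29318632-29318881, plus strand): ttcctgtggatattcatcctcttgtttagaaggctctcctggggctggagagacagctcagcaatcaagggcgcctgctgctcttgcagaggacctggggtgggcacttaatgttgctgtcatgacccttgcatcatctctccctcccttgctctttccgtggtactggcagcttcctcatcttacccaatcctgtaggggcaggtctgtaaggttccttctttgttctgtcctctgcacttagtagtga
Dpp4 (chr2:62412232-62412481, minus strand): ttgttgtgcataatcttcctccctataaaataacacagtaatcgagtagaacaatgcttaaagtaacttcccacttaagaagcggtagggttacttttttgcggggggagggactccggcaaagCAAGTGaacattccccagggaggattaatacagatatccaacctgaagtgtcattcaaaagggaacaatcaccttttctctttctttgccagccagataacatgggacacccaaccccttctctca
Cd34 (chr1:194938571-194938820, plus strand): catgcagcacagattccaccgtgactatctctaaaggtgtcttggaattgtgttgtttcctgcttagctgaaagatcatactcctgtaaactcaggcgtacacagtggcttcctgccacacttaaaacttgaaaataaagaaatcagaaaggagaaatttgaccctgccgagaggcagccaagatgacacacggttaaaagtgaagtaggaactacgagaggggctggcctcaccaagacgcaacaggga
Prrx1 (chr1:163313651-163313900, minus strand): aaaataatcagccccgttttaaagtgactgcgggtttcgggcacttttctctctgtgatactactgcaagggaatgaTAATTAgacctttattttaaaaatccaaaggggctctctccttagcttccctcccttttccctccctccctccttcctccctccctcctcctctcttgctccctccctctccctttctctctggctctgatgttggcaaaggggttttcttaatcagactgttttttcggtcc
Over the 32851 RefSeq promoters of this length, 66.2% held an E-box and 4.84% held TAATTA. The Dpp4 window held 1 E-box, CAAGTG, at position -126 from the start, and the Prrx1 window held 1 TAATTA. The Pi16 and Cd34 windows held neither motif, which says only that those letters are not in these windows. By GENCODE vM21, which places the start of Pi16 farther upstream, the Pi16 window lies inside the gene. The Prrx1 and Cd34 windows overlap their genes at an edge in that annotation.

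**Figure D2:**
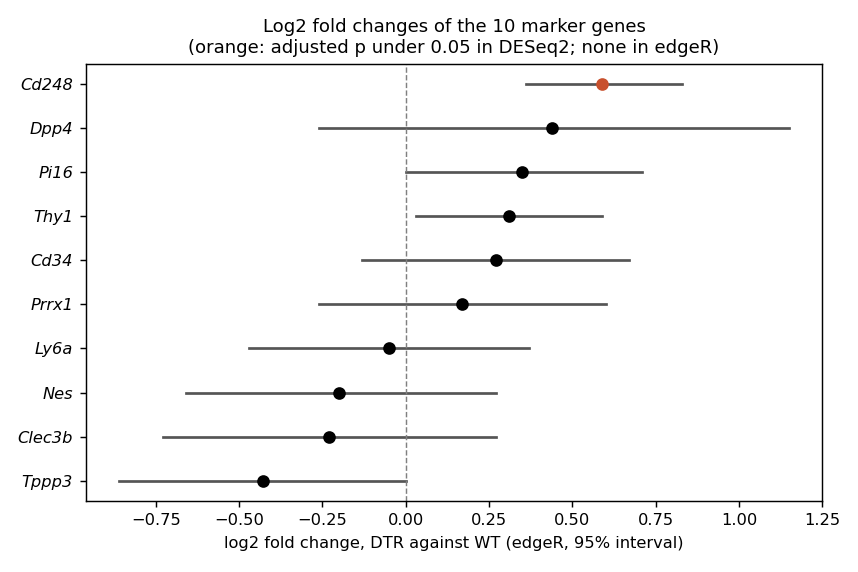
Fitted log2 fold changes of DTRScxLin (DTR) against WT tendons (points, horizontal axis) with 95% intervals (lines) from edgeR for the 10 genes. The interval of Cd248, with a fold of 1.28 to 1.78, lies farthest from 0, the interval of Thy1 lies just above 0, and that of Tppp3 ends just below 0.

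Cd248 encodes endosialin, a stromal transmembrane protein with a C-type lectin domain that is known from fibroblasts and pericytes of growing or wounded tissue. It stood at 7087, 8118 and 8780 in the WT tendons and at 12011, 12134 and 12070 in the DTRScxLin tendons. The groups were far apart and the DTRScxLin libraries nearly equal, with means of 7995 ± 853 in WT and 12072 ± 61.3 in DTRScxLin tendons (SD, n = 3 each). A smaller ratio of SD to mean among DTRScxLin libraries was found for only 0.154% of genes tested. That SD may therefore understate the spread between mice. The fold was 1.51 (95% interval 1.28 to 1.78) and the edgeR adjusted p = 0.26 (unadjusted p = 0.000499 from edgeR), rank 33 of 17496 genes by p. DESeq2 gave an adjusted p = 0.000121. Without DTRScxLin replicate 2 edgeR also called it (adjusted p = 0.0466, log2 fold change 0.59), where 0.572% of genes were called higher and 2.45% lower. That was the lowest edgeR adjusted p with 1 library left out, and the highest was 0.821. The fold was 1.49 within the female mice (1 WT and 2 DTRScxLin) and 1.51 within the male mice (2 WT and 1 DTRScxLin).

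Thy1, a GPI-anchored surface protein also called CD90 that marks many mesenchymal cells, stood at 11714, 12257 and 14990 in the WT tendons and at 16104, 15521 and 16673 in the DTRScxLin tendons. Each DTRScxLin value was above each WT value, as for 8.96% of all genes tested, with the smallest gap between WT replicate 3 and DTRScxLin replicate 2. The fold was 1.24 (95% interval 1.02 to 1.5), with adjusted p = 0.434 by edgeR and 0.212 by DESeq2. Of the 11 T cell genes, the defining Cd3e and Cd3d had at most 96.5 normalized counts in any library, and the highest, Cd4, which macrophages can also express, reached 903 in DTRScxLin replicate 1. The list held 0.00246% to 0.00528% of counts in WT and 0.00306% to 0.00483% in DTRScxLin libraries, and its part in the Thy1 level was not tested.

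Of the genes whose protein products accompany CD248 on pericytes, Rgs5 stood at 38912, 36257 and 52049 in the WT tendons and at 34691, 36469 and 42438 in the DTRScxLin tendons, with overlapping groups. All 8 genes of a mural cell list were fitted lower in DTRScxLin tendons, with a median log2 fold change of -0.28. Without WT replicate 3 that median was -0.09. Of the 8, DESeq2 called 1 lower, the potassium channel subunit gene Abcc9 (background 1.53%). Abcc9 was also the only gene of the 8 that was lower without overlap (background 7.85%). The list held 0.124% to 0.170% of counts in WT and 0.109% to 0.126% in DTRScxLin libraries. The part of mural cells in the Cd248 level was not tested. The related lectin-domain genes Cd93, Clec14a and Thbd, known mainly from endothelium, overlapped between the groups, with log2 fold changes of -0.08, 0.15 and -0.09.

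Clec3b encodes tetranectin, a secreted lectin that binds plasminogen and is abundant in adventitial fibroblasts. It stood at 7372, 8662 and 11449 in the WT tendons and at 6220, 9611 and 7647 in the DTRScxLin tendons. The groups overlapped widely (fold 0.854, 95% interval 0.604 to 1.21), and the log2 fold change of -0.23 lay between -0.40 without DTRScxLin replicate 2 and -0.04 without WT replicate 3. Its relative Clec3a, known from cartilage, was lower in each DTRScxLin library, at 2075, 884 and 1900 against 441, 816 and 296 (log2 fold change -1.64, SE 0.52, edgeR adjusted p = 0.416). Ly6a stood at 20163, 16004 and 25379 in the WT tendons and at 20735, 21468 and 17304 in the DTRScxLin tendons. All DTRScxLin values fell within the WT range, and the fold was 0.967 (95% interval 0.723 to 1.29). Its direction was not stable, since the log2 fold change of -0.05 became 0.07 with sex in the model, 0.04 without DTRScxLin replicate 3 and 0.13 without WT replicate 3. Ly6a lies in a family of similar genes between which reads could have been divided, and the relatives Ly6c1 and Ly6e overlapped between the groups as well (log2 fold changes -0.32 and -0.08).

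Nes encodes nestin, an intermediate filament protein of progenitor and newly formed cells. It stood at 1896, 2533 and 3030 in the WT tendons and at 1758, 2448 and 2306 in the DTRScxLin tendons, with a fold of 0.873 (95% interval 0.632 to 1.21). Only DTRScxLin replicate 1 was below the WT range, and the log2 fold change of -0.20 was -0.36 without WT replicate 1, -0.07 without DTRScxLin replicate 1 and -0.03 without WT replicate 3. The muscle regeneration gene Myog, from tissue that also makes nestin, was at a log2 fold change of 1.14 with overlap, and Myh3 stood at 511, 1023 and 750 in the WT tendons and at 1110, 4564 and 3673 in the DTRScxLin tendons, and DESeq2 called Myh3 higher. Of the 8 muscle regeneration genes 5 were fitted higher and 3 lower, and their part in the Nes level was not tested. Of the filament genes related to Nes, Vim and Synm overlapped between the groups, as did Des.

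Across libraries, the highest and lowest tendon within each genotype were often the same from marker to marker. DTRScxLin replicate 2 was the highest DTRScxLin library for 9 of the 10 genes, against 35.5% of all genes tested, and DTRScxLin replicate 1 was the lowest of its group for 8. Cd248 counts among the 9 although its DTRScxLin values were nearly equal. Over all 6 libraries the markers did not vary together throughout, with Pearson r between pairs from -0.49 (Tppp3 and Cd248) to 0.94 (Clec3b and Nes), values that share library composition and depth. WT replicate 3 was the highest WT library for 8 of the 10, against 36.5% of all genes, and WT replicate 1 the lowest for 7. For the lowest library of a group the share over all genes was not counted, so those counts have no background. Together the 10 genes took up 0.249%, 0.265% and 0.312% of all counts in the WT tendons and 0.263%, 0.351% and 0.307% in the DTRScxLin tendons. Dpp4 had the widest range, from -0.29 in WT replicate 2 to 0.93 in DTRScxLin replicate 2 as a log2 difference from the WT mean. The DTRScxLin library with the highest markers was also the one with the highest skeletal muscle share and the highest (mostly Car3) adipocyte share of its group. Their part in the marker values was not tested. Among the 10 genes the ratio to WT differed most between the sexes for Dpp4, at 1.97 times the only WT value in the female mice and 0.810 of the WT mean in the only male DTRScxLin mouse. A genotype by sex term in edgeR, added after the values were seen and resting on 2 residual degrees of freedom, put the female minus male difference for Dpp4 at 1.28 on the log2 scale (95% interval 0.41 to 2.14, edgeR adjusted p = 0.999, unadjusted p = 0.0117 from edgeR). None of the 10 genes passed that test after adjustment, against 1 gene of all those tested. Pi16 was at 1.46 times WT in the female and 1.06 times WT in the male mice.

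**Figure D3:**
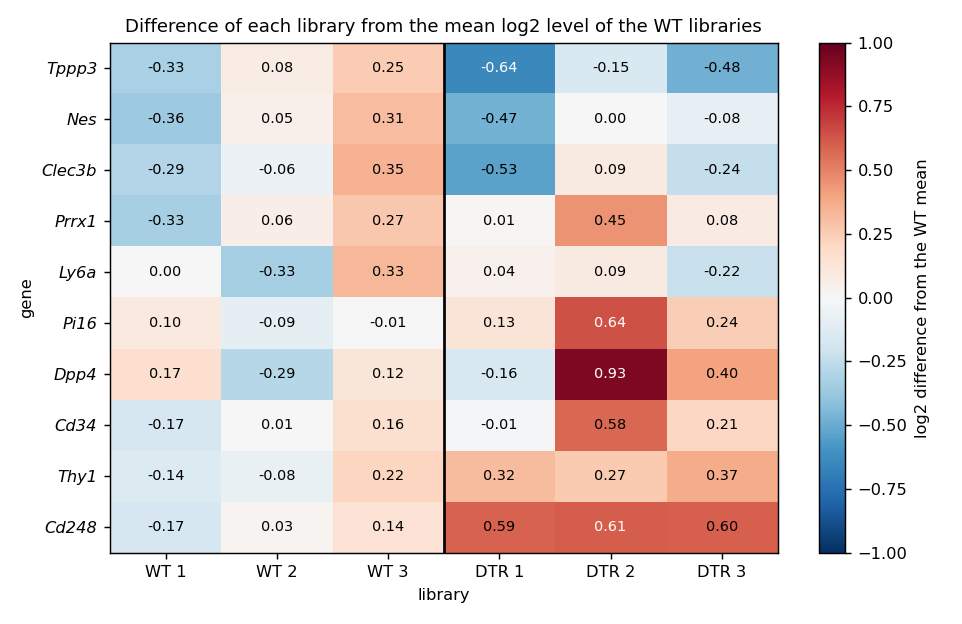
Log2 difference of each library (columns) from the mean log2 level of the 3 WT libraries for each of the 10 genes (rows), with red above and blue below that mean. Cd248 stands at 0.59 to 0.61 in all 3 DTRScxLin (DTR) libraries and Thy1 at 0.27 to 0.37, whereas Pi16, Dpp4, Cd34 and Prrx1 are darkest red in DTRScxLin replicate 2 and Tppp3 is below 0 in all 3.

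Levels were compared between the genes as TPM, a measure of transcript share that divides each count by the gene's exon length in GENCODE vM21. Ly6a was the most abundant marker, at 1306 ± 283 TPM in WT and 1292 ± 68.6 in DTRScxLin tendons (SD, n = 3 each), followed by Clec3b at 710 ± 162 and 619 ± 118. Both were above all other markers in each library. A middle group followed in WT tendons, from Thy1 at 333 ± 44.9 through Tppp3 at 287 ± 59.4, Pi16 at 266 ± 10.9 and Cd34 at 264 ± 31.7 to Cd248 at 236 ± 27.7 TPM, in which each gene overlapped its neighbour. Prrx1 (117 ± 25.1), Nes (29.8 ± 7.01) and Dpp4 (16.0 ± 2.26) were each below the gene before them in all WT libraries. In DTRScxLin tendons Tppp3 stood at place 7 and Cd248 at place 4 in the order of mean TPM (217 ± 31.3 and 365 ± 23.7), where in WT tendons Tppp3 was at place 4 and Cd248 at place 7. The median tested gene was at 13.4 TPM, below the mean of each of the 10.

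**Figure D4:**
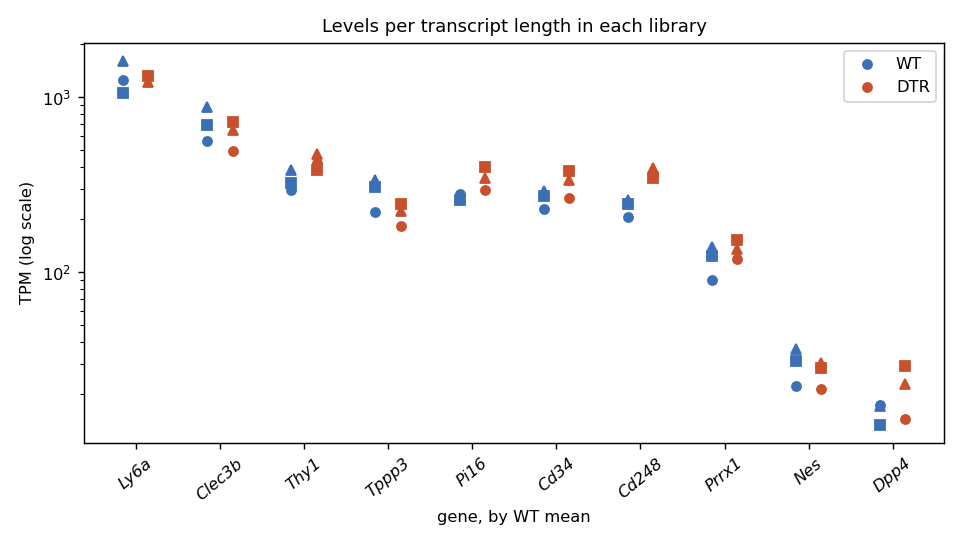
TPM on a log scale for the 10 genes in order of their WT mean, with WT libraries in blue and DTRScxLin (DTR) libraries in orange (circle, square and triangle for replicates 1, 2 and 3). Ly6a lies at 1049 TPM or above in all 6 libraries, Dpp4 and Nes lie at 36.1 or below, and Tppp3 and Cd248 exchange places between the groups.

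Further genes of the same cells were examined in lists that hold none of the 10, and in none of these lists did a gene pass the edgeR threshold. The adventitial fibroblast list had 20 tested genes. Of these, 5 had an unadjusted p under 0.05 in edgeR, 3 of them higher (background 5.52%) and 2 lower (background 5.45%). Without overlap, 3 of the 20 were higher and 3 lower (background 8.96% higher and 7.85% lower). The median log2 fold change was 0.15 (0.02 without DTRScxLin replicate 2, 0.05 without WT replicate 1 and 0.25 without DTRScxLin replicate 1). Mfap5, a microfibril glycoprotein of adventitial fibroblasts, had 20013 ± 2641 normalized counts in WT and 31126 ± 1451 in DTRScxLin tendons (SD, n = 3 each) and was called higher by DESeq2. Limch1, an actomyosin regulator, had 5053 ± 824 and 2246 ± 917 (SD, n = 3 each) and was called lower by it. Col14a1, a fibril-associated collagen, was at a log2 fold change of 0.49. In the tendon sheath and synovial list of 12 genes, 3 were higher and 1 was lower without overlap, with a median of 0.06 that turned to -0.08 without DTRScxLin replicate 1 and -0.04 without WT replicate 1. The sheath gene Wnt16, a Wnt ligand, stood at 546, 675 and 665 in the WT tendons and at 1312, 927 and 777 in the DTRScxLin tendons, and DESeq2 called it higher. Axin2, a Wnt target that also labels epitenon cells, had 618 ± 7.26 and 475 ± 53.5 (SD, n = 3 each), below WT in each DTRScxLin library.

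The mesenchymal progenitor list of 15 genes had 3 genes higher and 1 lower without overlap and a median of 0.03. For this list and the next, the background without overlap was 8.96% higher and 7.85% lower. Nt5e, which encodes the ectoenzyme CD73, stood at 4129, 3949 and 3808 in the WT tendons and at 8085, 5723 and 5933 in the DTRScxLin tendons, at 0.73 on the log2 scale (SE 0.14, edgeR adjusted p = 0.268), and was called higher by DESeq2. The hyaluronan receptor gene Cd44 was at 0.38. Twist2, a basic helix-loop-helix factor of dermal mesenchyme, was at -0.51. Of the 12 activated fibroblast genes, 10 were fitted higher, 3 of them without overlap (Fap, Inhba and Postn), and the median was 0.31, which was 0.09 without DTRScxLin replicate 1 and 0.48 without DTRScxLin replicate 2. Fap, the peptidase closest in sequence to Dpp4, had 6456 ± 199 normalized counts in WT and 7896 ± 788 in DTRScxLin tendons (SD, n = 3 each), without overlap, whereas the related Dpp8 and Dpp9 were at 0.02 and 0.04. The study named Postn and Mfap5 among the genes raised in these same libraries, so their RNA direction here is not independent evidence. It also reported more periostin protein in stained sections of DTRScxLin repairs, which were not analysed here. Over all 20 relatives of the 10 genes, 6 were fitted higher and 14 lower, with a median of -0.09.

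**Figure D5:**
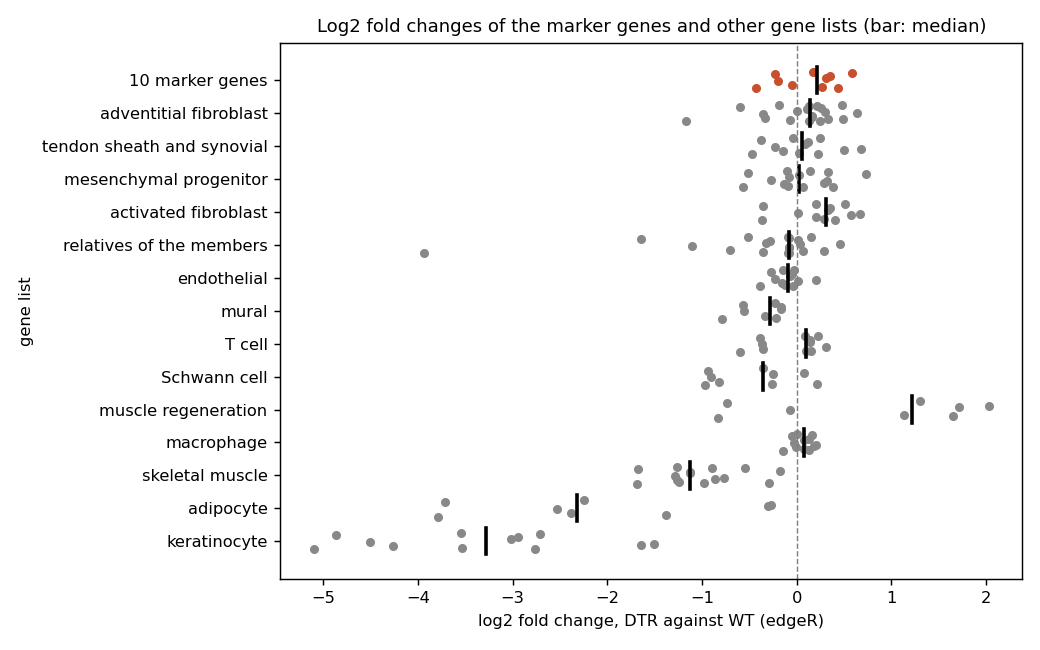
Log2 fold change of DTRScxLin (DTR) against WT tendons for each gene (points) of the 10 markers (orange) and of 14 other lists (grey), with the median of each list as a black bar. The tendon cell list is not drawn. The fibroblast lists lie on both sides of 0 with medians from 0.03 to 0.31, while the adipocyte, keratinocyte and skeletal muscle lists have medians of -2.32, -3.28 and -1.13.

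Other cell types that could lie in a dissected tendon did not move alike. The skeletal muscle median of -1.13 was -2.27 without DTRScxLin replicate 2, -0.71 without DTRScxLin replicate 1 and -0.73 without DTRScxLin replicate 3. All 8 adipocyte genes were fitted lower, with a median log2 fold change of -2.32 (-1.39 over those with at least 10 counts in every library). Of these, 5 were lower without overlap (background 7.85%). Adipoq, the adipocyte hormone adiponectin, stood at 96.5, 187 and 274 in the WT tendons and at 17.5, 62.2 and 26.7 in the DTRScxLin tendons, and Pi16, Dpp4 and Cd34 are known from fibroblasts of fat depots as well. All 12 keratinocyte genes were fitted lower (median -3.28), although Krt5 was near 0 in 1 WT and 2 DTRScxLin libraries, and the median was -10.27 without DTRScxLin replicate 3 and -6.57 with the replicate block. The keratinocyte list held 0.353%, 0.219% and 0.00972% of counts in WT and 0.00408%, 0.00668% and 0.0370% in DTRScxLin replicates 1 to 3. The macrophage list of 12 genes had a median of 0.08, which was -0.03 without WT replicate 2. The 11 T cell genes had a median of 0.10 (-0.35 without DTRScxLin replicate 1, -0.09 without WT replicate 2, -0.16 without WT replicate 3). These lists had 0 genes without overlap (background 16.8% in either direction). The tendon cell list of 10 had a median of 0.23. In it Scx, Kera and Thbs4 were higher and Chad lower without overlap (background 8.96% higher and 7.85% lower). The study reported Thbs4 as raised in these same libraries and stained sections for its protein. The RNA direction of Thbs4 here is therefore not independent evidence. For the summed level of a list the exact two-sided permutation test of 3 against 3 libraries cannot give a p below 0.10, and it gave between 0.2 and 0.9 for the 15 lists.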

How the data were processed

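RNA of 6 FDL tendons (3 WT and 3 DTRScxLin, 1 tendon each) was sequenced from libraries described as TruSeq Stranded mRNA in the methods, while the labels add a SMARTER kit. The authors used FastP to clean reads and featureCounts to assign them to genes, and deposited raw counts. Their deposited signal table holds the same counts divided by 1 DESeq2 (1.22.1) size factor per library, from 0.973 to 1.06, with 0 genes departing from this by more than 1e-06 of the value. Aligner, genome build, annotation and strand setting are not given in the sources used here, so the only coordinates given are those of the promoter windows, which are RefSeq's own in GRCm38.p6 and not taken from the counting, and Cd34, Pi16 and Dpp4, which overlap antisense genes in GENCODE vM21, are uncertain to that extent.

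The tests used edgeR 4.0.16 under R 4.3.3 (filterByExpr, TMM, robust quasi-likelihood fit with genotype as the only term), limma 3.58.1 and DESeq2 1.42.0, and p-values were adjusted by Benjamini and Hochberg over all genes at a threshold of 0.05. SEs were taken as the absolute log2 fold change over the root of its F statistic. Intervals are 95% from the same fit. TPM used the union of exons per gene, available for 97.8% of tested genes. The fits were tested on simulated counts with known changes. Total counts of 42744138 to 48854310 make counting error small, so n = 3 limits precision, and replicate libraries differed by 36.6 to 190 in chi-square per degree of freedom, so none was a duplicate.

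The 10 genes and all 15 other lists were chosen with earlier results of these data known. The rule named the 10 genes, up to 3 examples among their relatives, from each other list up to 3 genes of largest absolute log2 fold change (mean of 50 normalized counts or more, groups apart), and the 2 genes nearest in pattern to each marker, predicted gene models left out. Defining cell type markers and relatives named beyond these were chosen after their values were seen. Alternatives were DESeq2, limma-voom, 2 other normalizations, TMM without muscle genes, 2 other filters (none, or at least 10 counts in every library), a replicate block, a sex term, the deposited signal values as log2(value + 1) in limma, and each library left out. The histology and biomechanics were not analysed here.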

Additional observations from a re-analysis of the deposited data

How the results depend on the processing

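The count of genes with an adjusted p under 0.05, which was 0 with edgeR (1918 at an unadjusted p under 0.05), was 466 with DESeq2, 83 without a filter on low counts and 1 with the replicate block, and from 0 to 544 with 1 library left out, 544 being the value without DTRScxLin replicate 2. The count among the 10 markers, which was 0, was 1 with DESeq2, 1 without a filter on low counts and from 0 to 1 with 1 library left out, in each case through Cd248. With the replicate block it stayed at 0. Whether the replicate numbers pair the mice is not known. Over all genes the deviations of same-numbered libraries correlated at -0.188, -0.149 and -0.684. With 3 libraries per group such values cannot show or exclude a pairing. The median log2 fold change of the markers ran from 0.06 to 0.33 with 1 library left out and from 0.15 to 0.23 otherwise. Ly6a changed sign to 0.07 with a sex term and ran from -0.20 to 0.13 with 1 library left out. The other 9 markers kept their direction in all 16 alternatives, with Cd248 between 0.52 and 0.66 when 1 library was left out and between 0.59 and 0.60 otherwise, and Tppp3 between -0.58 and -0.30 when 1 was left out. The adjusted p of Cd248 ran from 0.000121 (DESeq2) to 0.821 (edgeR without WT replicate 2). Why the calls differed between tools was not tested. With 3 mice per genotype, intervals of a single marker span folds such as 0.833 to 2.23 (Dpp4), so a missed threshold does not show equal levels.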

Other observations

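For each marker the 2 genes with the most similar log2 CPM over the 6 libraries were listed, among 13448 other genes with at least 50 normalized counts on average. With 6 points and this many genes high values of r arise readily, and the points share library composition, so the values are descriptions. The nearest genes to Cd248 were Phactr1 (r = 0.997), at 663, 828 and 867 in the WT tendons and at 1249, 1295 and 1247 in the DTRScxLin tendons (normalized counts, replicates 1 to 3), and Add2 (r = 0.992), a cytoskeletal adducin with a log2 fold change of 1.25. Those to Tppp3 were Bcam (r = 0.984), a laminin receptor at 1820, 2353 and 2685 against 1370, 1918 and 1395, and Engase (r = 0.983). Clec3b was nearest to Fabp4 (r = 0.994), a fatty acid carrier of adipocytes and capillaries, at 4595, 5542 and 7720 against 3896, 6340 and 4553. Thy1 was nearest to Trnp1 (r = 0.996) and the tubulin gene Tuba1a (r = 0.994), Nes to Spice1 (r = 0.999) and the adhesion gene Cadm3 (r = 0.996), and Dpp4 to the leukocyte receptor gene Lair1 (r = 0.994) and Zfp958 (r = 0.984). Pi16 was nearest to Nat2 (r = 0.995) and Mexis (r = 0.976), Cd34 to Ap3m1 (r = 0.988) and Catspere2 (r = 0.985), Prrx1 to Cbx8 (r = 0.992) and Clec14a (r = 0.987), and Ly6a to Gde1 (r = 0.987) and Ifi27 (r = 0.983).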
